A study of Mus musculus with 11 samples.

Results

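Solute carriers are the membrane proteins of the Slc gene families, which move amino acids, sugars, ions, metals, vitamins and other small molecules across membranes by facilitated diffusion or by coupling one solute to another. Their messages were followed in lungs of mice without the translational repressors 4E-BP1 and 4E-BP2. Members were chosen by symbol, as every Slc gene name with a family and a member number, leaving out the mitochondrial family Slc25. This gave 258 genes of 49 families among the 14351 genes that the probe sets named. Of these, 112 genes of 42 families had a log2 value of at least 5 on at least 2 arrays and were tested, among 8085 genes tested in all.

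The symbol rule does not fix a place in the cell. The families Slc17, Slc18, Slc32, Slc33, Slc35 and Slc37 mainly serve the Golgi, the endoplasmic reticulum, vesicles or lysosomes, and they held 21 of the 258 genes and 9 of the 112 tested. Several other members named below, such as Slc15a3, Slc15a4, Slc38a9 and Slc46a3, are lysosomal proteins as well, so the set is called solute carriers here and not plasma membrane carriers. Slc7a6os, Slc4a1ap, Slc9a3r1 and Slc9a3r2 carry a carrier's symbol at the start of their names and are not carriers themselves.

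RNA came from lungs of Balb/c mice that were either wild type or 4ebp1-/-/4ebp2-/-. Wild-type mice were bought from a supplier and knockout mice came from another laboratory, so colony and genotype cannot be told apart. All mice ate the same purified diet from 5 weeks of age, and their age and sex at collection are not given in the sources used here. Total RNA was measured on 3 wild-type and 3 knockout arrays. Polysomal RNA, pooled from gradient fractions 7 to 10 of 10 and carrying 3 or more ribosomes per message, was measured on 2 wild-type and 3 knockout arrays. Nothing in the labels ties an array to a separate mouse. The p-values therefore reflect only array-to-array spread, which may be technical. Expression values are log2, differences are in log2 units with their standard error (SE), and a gene passed the test at a limma adjusted p below 0.05. Polysomal values are relative to the other messages on the same array and are not counts of ribosomes.

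4E-BP proteins bind the cap-binding factor eIF4E and keep it from starting translation until the kinase mTORC1 phosphorylates them. Amino acid carriers sit on both sides of this circuit, because amino acids activate mTORC1, and carriers are themselves products of regulated translation. In the lung, carriers also set the ion and water content of airway fluid, recycle phosphate in alveolar type 2 cells and feed lipid synthesis. Messages known for the strongest control through 4E-BPs begin with a terminal oligopyrimidine (TOP) tract, a C followed by pyrimidines at the very start of the RNA. A second sequence of interest is the C/EBP-ATF response element, to which ATF4 binds in genes of the amino acid response.

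Windows around the annotated start of 6 members are shown because their genotype difference in polysomal RNA departed from that in total RNA. Each window runs from 80 bases before the start to 10 bases of the transcript. The first 5 transcribed bases are in capitals, where a TOP tract would lie, and all are from RefSeq on GRCm38.p6.
Slc6a14, chrX:21714820-21714909, plus strand: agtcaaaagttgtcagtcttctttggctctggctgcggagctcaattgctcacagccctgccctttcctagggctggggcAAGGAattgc
Slc30a4, chr2:122702654-122702743, minus strand: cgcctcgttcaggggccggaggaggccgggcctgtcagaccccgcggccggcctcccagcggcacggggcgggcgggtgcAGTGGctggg
Slc38a5, chrX:8271301-8271390, plus strand: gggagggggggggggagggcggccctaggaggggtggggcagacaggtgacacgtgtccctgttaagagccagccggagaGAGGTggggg
Slc12a4, chr8:105966106-105966195, minus strand: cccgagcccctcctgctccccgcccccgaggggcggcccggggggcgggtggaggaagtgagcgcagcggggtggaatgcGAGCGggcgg
Slc3a2, chr19:8713888-8713977, minus strand: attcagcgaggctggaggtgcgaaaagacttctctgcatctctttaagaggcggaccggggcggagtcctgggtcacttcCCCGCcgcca
Slc37a1, chr17:31296144-31296233, plus strand: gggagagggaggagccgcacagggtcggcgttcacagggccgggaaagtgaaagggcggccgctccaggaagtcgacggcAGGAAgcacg

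A TOP-like start, C followed by 4 bases that are each C or T at the annotated start, was searched on the transcribed strand. It was found in 0 of the 83 tested members that have a window, against 813 of all 27025 genes (3.01%). Among the 194 of 258 members with a window, 3 had one, namely Slc16a4, Slc22a22 and Slc7a7, and none of these 3 was tested. The response element, spelled TGATGNAAN and searched on both strands of the 300-base window, was found in 3 of the 83 tested members (3.61%) and in 1215 of all genes (4.5%). It was in none of the members that passed and have a window, which are 20 of the 27 that passed in total RNA, 19 of the 23 in polysomal RNA and 17 of the 20 in the interaction. These counts describe letters in annotated windows, and a start that differs in lung would not be seen.

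The deletion itself was visible in Eif4ebp2, which lay at 4.50, 5.49 and 4.67 on the wild-type total arrays and at 2.61, 3.10 and 3.26 on the knockout ones. It fell by 1.90 in total RNA (limma SE 0.25, adjusted p = 0.0016) and by 2.07 in polysomal RNA (limma SE 0.28, adjusted p = 0.0025). Eif4ebp1 fell by 0.40 and 0.67, and where its probes lie relative to the deletion was not analysed here. Probe sets too dim to test had medians of 2.30 to 2.49 on the 11 arrays, which serves below as the floor. Markers of several lung cell types moved between genotypes too. In total RNA 17.2% of all genes tested were higher in knockout lung. There 6 of 9 endothelial markers were higher, with summed levels of 14.57 to 14.70 against 13.93 to 14.05. So were 3 of 6 tested alveolar type 2 markers (17.24 to 17.28 against 16.29 to 17.01), though Sftpc, the brightest, did not pass (limma adjusted p = 0.092). No marker of these 2 lists was higher in polysomal RNA (16.08 to 16.20 against 16.09 to 16.14, and 17.78 to 17.83 against 17.83 to 17.92). There 1 endothelial and 0 alveolar type 2 markers were lower. Of 5 tested heart muscle and 5 smooth muscle markers, 3 each were higher in total RNA. In polysomal RNA 1 and 0 were higher, beside 8.36% of all genes, and 0 and 1 were lower. Of 5 ciliated cell markers, 4 were lower in polysomal RNA, beside 6.77% of all genes. Their summed levels there were 9.04 to 9.12 against 10.33 to 10.58. Their summed levels in total RNA overlapped, at 7.92 to 8.01 against 7.80 to 8.33, and 1 marker was lower there. In bulk lung, fewer cells of a type and less RNA per cell cannot be told apart, and the part of these markers in the carrier differences was not tested.

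In total RNA, 27 of the 112 tested solute carriers passed, 16 higher and 11 lower in knockout lung. This was 24.1% of the members, against a background of 23.2% of all genes tested. Of the members, 9.82% were lower, against 5.97% of all genes, and 14.3% were higher, against 17.2%. Their median difference was 0.00, against 0.09 over all genes. The split depended on the scaling, with 11 higher and 16 lower after quantile normalization, and 11 higher and 18 lower with equal array medians, which moved the median of all genes to 0.02 and -0.01. Without wild-type total array 1, or without knockout total array 2, 15 members passed.

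In polysomal RNA, 23 solute carriers passed, 4 higher and 19 lower in knockout lung. This was 20.5% of the members, against a background of 15.1%. Lower members made up 17% of those tested, against 6.77% of all genes, and higher members 3.57%, against 8.36%. The median difference was -0.11 for the members and -0.01 for all genes. Most polysomal changes among carriers were thus downward, and the same held after quantile normalization (2 higher, 20 lower) and with equal medians (3 higher, 21 lower). The count fell to 8 without wild-type polysomal array 1 and 13 without wild-type polysomal array 2, and to 14, 12 and 14 without knockout polysomal array 1, 2 or 3.

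**Figure D1:**
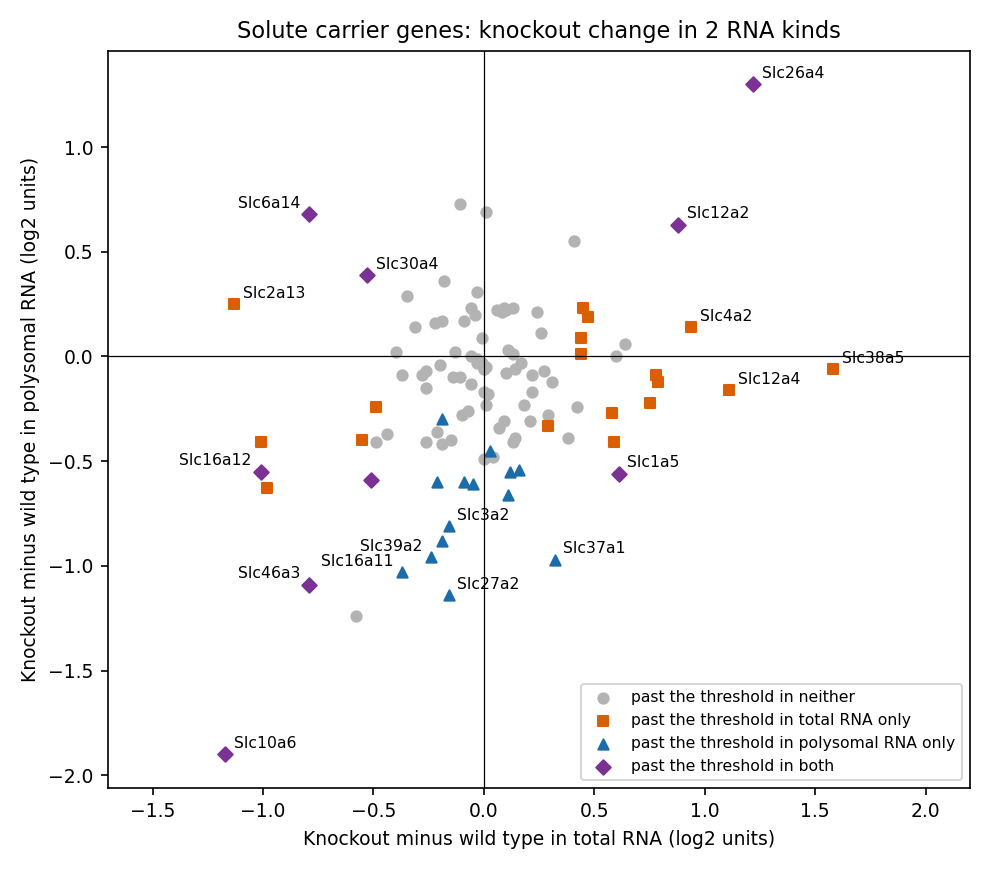
Knockout minus wild-type difference of the 112 tested solute carriers in total RNA (x axis) and polysomal RNA (y axis), both in log2 units, with 1 point per gene and the marker showing in which RNA kind it passed. Slc26a4 and Slc12a2 lie at the upper right, Slc10a6 and Slc46a3 at the lower left, Slc6a14 and Slc30a4 at the upper left and Slc1a5 at the lower right.

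The polysomal and total comparisons use separate arrays. A set of 9 genes passed in both, which is 33.3% of the total RNA list and 39.1% of the polysomal list. Slc12a2 and Slc26a4 were higher in both, and Slc10a6, Slc15a1, Slc16a12 and Slc46a3 were lower in both. The other 3 went opposite ways: Slc1a5 was higher in total and lower in polysomal RNA, and Slc6a14 and Slc30a4 were lower in total and higher in polysomal RNA. The remaining 71 tested members passed in neither. The shares of all genes that passed in both, or in opposite directions, were not counted. Whether these counts are particular to carriers therefore cannot be told.

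Amino acid, amine and peptide carriers were the largest class, with 59 genes measured and 25 tested. In total RNA 4 rose and 3 fell, and in polysomal RNA 1 rose and 4 fell, beside 23.2% and 15.1% of all genes called. Their median difference was 0.00 in the former and -0.27 in the latter.

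Slc6a14, a carrier of the epithelial surface that takes up neutral and cationic amino acids with sodium and chloride, read 7.38, 7.36 and 7.01 on the wild-type total arrays and 6.33, 6.50 and 6.54 on the knockout total arrays. On the polysomal arrays it read 8.01 and 7.65 in wild type and 8.16, 8.68 and 8.67 in knockout. The order of the genotypes was reversed between the RNA kinds, with no overlap in either. In total RNA it fell by 0.79 (limma SE 0.17, adjusted p = 0.010), 1.73-fold, and in polysomal RNA it rose by 0.68 (limma SE 0.19, adjusted p = 0.041). The fall in total RNA passed without any 1 array. The polysomal rise was lost in 9 of the 11 fits that left out 1 array (differences of 0.50 to 0.85, adjusted p up to 0.23) and with quantile normalization.

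Slc1a5, the sodium-dependent carrier that brings glutamine into many cells, moved the other way. Total RNA values were 9.19, 9.24 and 8.93 in wild type and 9.64, 9.77 and 9.79 in knockout. Polysomal values were 12.45 and 12.37 in wild type and 11.77, 11.78 and 12.01 in knockout. Every knockout array was thus higher in total RNA and lower in polysomal RNA than the wild-type arrays of the same kind. It rose by 0.61 in total RNA (limma SE 0.11, adjusted p = 0.0048), and a fall of 0.56 was seen in polysomal RNA (limma SE 0.12, adjusted p = 0.015). The polysomal call ended without either wild-type polysomal array, with differences between -0.64 and -0.52 (adjusted p up to 0.078).

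Slc3a2 encodes the heavy chain that carries several amino acid exchangers, Slc7a5 among them, to the cell surface. Its total RNA values were 10.90, 10.93 and 10.78 in wild type and 10.67, 10.76 and 10.70 in knockout, a difference of -0.16 that did not pass (limma SE 0.10, adjusted p = 0.25). Polysomal values were 13.38 and 13.17 in wild type and 12.36, 12.60 and 12.45 in knockout. Here the genotypes were well apart, and Slc3a2 fell by 0.81, or 1.75-fold (limma SE 0.11, adjusted p = 0.0023), a call that stood without any 1 array. Its light chain partner Slc7a5, which exchanges large neutral amino acids, stayed between 4.55 and 5.17 on all arrays and passed in neither kind of RNA (0.22, SE 0.13, and -0.17, SE 0.14).

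Slc38a5, a glutamine, asparagine and histidine carrier coupled to sodium and protons, had the largest rise of any tested member in total RNA. It read 5.96, 7.01 and 7.25 in wild-type and 8.16, 8.59 and 8.20 in knockout total RNA, and rose by 1.58, or 2.98-fold (limma SE 0.31, adjusted p = 0.0072). In polysomal RNA it read 11.07 and 10.36 in wild type and 10.55, 10.77 and 10.65 in knockout. Those values overlapped, and the polysomal difference of -0.06 did not pass. Slc38a4, a carrier of the same family for small neutral amino acids, read 8.28, 8.61 and 7.29 in wild-type and 6.88, 7.03 and 7.25 in knockout total RNA. It fell by 1.01 (limma SE 0.28, adjusted p = 0.030), with only a small gap between wild-type array 3 and the knockout arrays. The call was lost without wild-type total array 1 or 2 or knockout total array 1 or 2 (differences of -1.40 to -0.74 over all fits, adjusted p up to 0.10).

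The peptide and histidine carriers of the Slc15 family were divided. Slc15a3 and Slc15a4, which export histidine and peptides from lysosomes of immune cells, rose in total RNA by 0.58 (limma SE 0.13, adjusted p = 0.013) and 0.59 (limma SE 0.15, adjusted p = 0.022). Slc15a1, the peptide carrier best known from the intestine, fell by 0.51 in total RNA (limma SE 0.15, adjusted p = 0.039) and by 0.59 in polysomal RNA (limma SE 0.17, adjusted p = 0.045). Its polysomal difference was -0.36 without wild-type polysomal array 1, and leaving out 1 array ended the call in 7 of 11 fits for total RNA and 8 for polysomal RNA. Slc15a3 did not pass without knockout total array 2 (adjusted p = 0.056), nor Slc15a4 without that array or wild-type total array 1 (adjusted p up to 0.087). Of 8 tested macrophage markers, 3 were higher and 4 lower in knockout total RNA, beside 17.2% and 5.97% of all genes. Their summed level was 14.19 to 14.43 against 14.65 to 14.86.

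Slc38a9, a lysosomal protein that senses arginine for mTORC1, changed little in size. It read 7.66 and 7.70 on wild-type and 7.31, 7.42 and 7.39 on knockout polysomal arrays, and fell by 0.30 (limma SE 0.08, adjusted p = 0.034). The arrays did not overlap, although 8 of the fits without 1 array lost the call. Slc6a4, the serotonin carrier that lung endothelium is known for, lay at 3.02 to 4.93 and was not tested. Slc7a11 and Slc7a2 were not tested either.

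**Figure D2:**
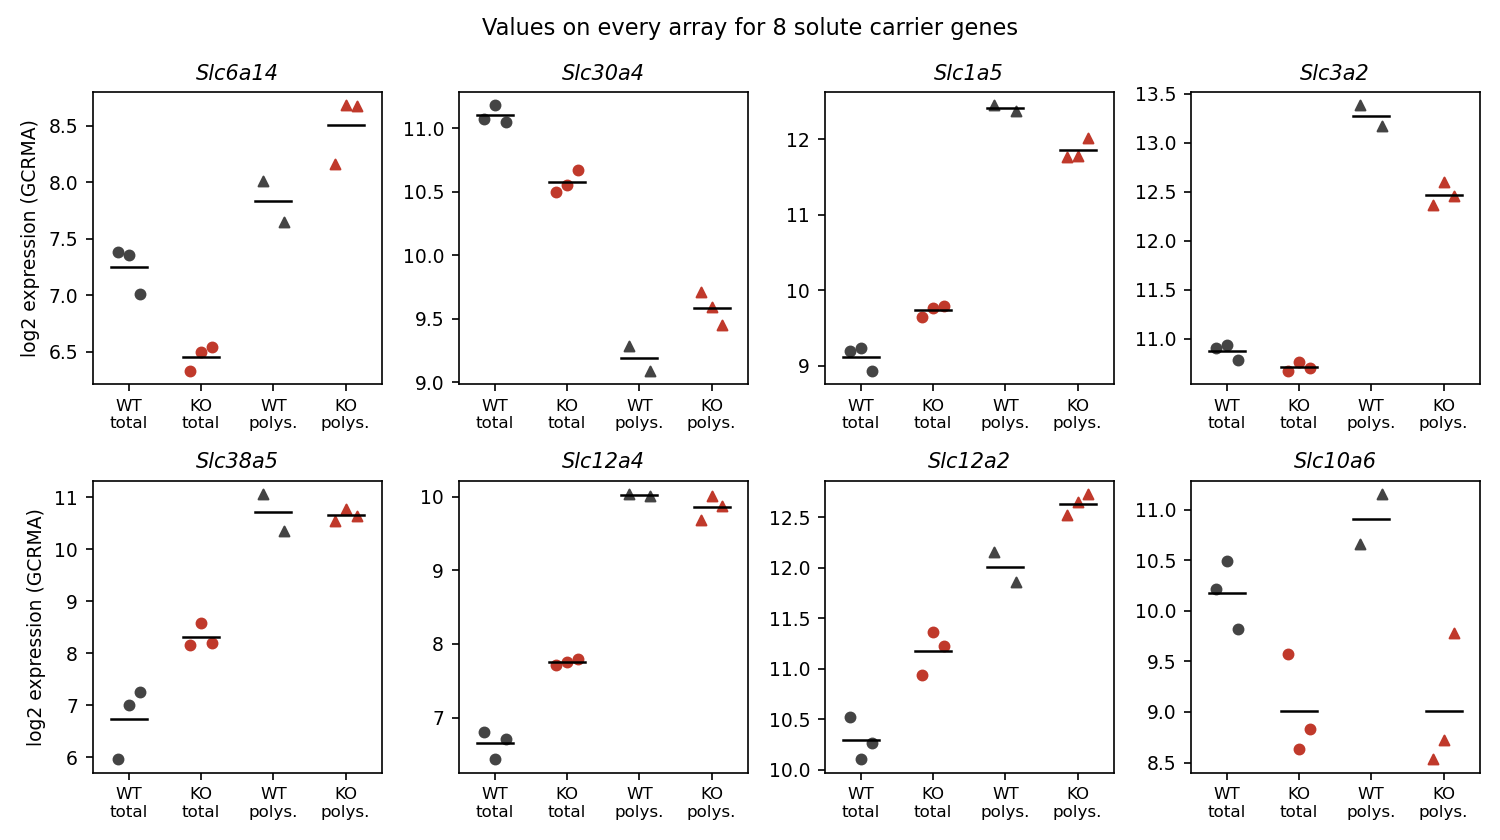
Expression on every array (log2, GCRMA) of 8 solute carriers in wild-type (WT, grey) and knockout (KO, red) lung, with circles for total and triangles for polysomal RNA and a line at each group mean. The y axes differ between genes and do not start at 0. Slc6a14 and Slc30a4 are lower in knockout total RNA and higher in knockout polysomal RNA, and Slc1a5 is the reverse.

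Of 11 tested carriers of chloride, bicarbonate and phosphate (30 measured), 4 rose in total RNA and 7 did not pass, beside 17.2% of all genes higher. None was lower by limma's adjusted p (1 lower at an unadjusted p below 0.05). In polysomal RNA 2 rose and 1 fell, beside 8.36% and 6.77% of all genes. The class median was 0.12 in total and 0.14 in polysomal RNA, against 0.09 and -0.01 over all genes. Alveolar type 2 and endothelial marker levels were higher on the same knockout total arrays, as given above.

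Slc12a2, the sodium-potassium-chloride cotransporter that loads secretory epithelium with chloride, was higher in both kinds of RNA. Total RNA values were 10.52, 10.10 and 10.26 in wild type and 10.94, 11.36 and 11.22 in knockout, and it rose by 0.88 (limma SE 0.15, adjusted p = 0.0037). Polysomal values were 12.15 and 11.86 against 12.52, 12.65 and 12.73, a rise of 0.63 (limma SE 0.16, adjusted p = 0.031). No wild-type array reached a knockout array of its kind. The polysomal call was lost without wild-type polysomal array 2 or knockout polysomal array 2 or 3 (differences of 0.49 to 0.78, adjusted p up to 0.19).

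Slc12a4 and Slc12a7 are potassium-chloride cotransporters that move salt outward and so act against Slc12a2. Slc12a4 read 6.81, 6.43 and 6.71 in wild-type and 7.71, 7.76 and 7.80 in knockout total RNA, a rise of 1.11, or 2.15-fold (limma SE 0.12, adjusted p = 5.6e-04). On polysomal arrays it read 10.04 and 10.01 in wild type and 9.69, 10.01 and 9.88 in knockout, and did not pass. Slc12a4 thus differed only in total RNA, by a margin several times its standard error. Slc12a7 read 8.82 and 8.45 on wild-type and 7.98, 8.10 and 8.20 on knockout polysomal arrays and fell by 0.55 (limma SE 0.12, adjusted p = 0.016). Without wild-type polysomal array 1 the difference was -0.36 (adjusted p = 0.093), and in total RNA Slc12a7 did not pass.

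Slc4a2, an exchanger of chloride for bicarbonate on the basolateral side of epithelia, read 7.83, 8.15 and 8.24 in wild-type and 8.81, 9.05 and 9.18 in knockout total RNA. It rose by 0.94 (limma SE 0.15, adjusted p = 0.0033), a call kept without any 1 array. Its polysomal values, 9.51 and 9.85 against 9.78, 10.00 and 9.68, overlapped. Pendrin, the airway anion exchanger encoded by Slc26a4, lay low, at 4.21, 2.92 and 3.27 in wild-type and 4.32, 4.59 and 5.17 in knockout total RNA. It rose by 1.22 there (limma SE 0.32, adjusted p = 0.022) and by 1.30 in polysomal RNA (limma SE 0.35, adjusted p = 0.037), where it read 4.33 and 3.95 against 5.49, 5.56 and 5.27. Slc26a4 reached the filter through knockout arrays alone, so a difference was favoured by the filter. The total RNA call was lost without wild-type array 2 or knockout array 2 or 3 (0.95 to 1.60, adjusted p up to 0.072), and the polysomal one in 6 of 11 such fits.

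Slc34a2, the sodium-phosphate cotransporter of alveolar type 2 cells, was measured at 14.39 to 14.82 on all arrays. Its differences of 0.26 in total RNA (limma SE 0.10, adjusted p = 0.097) and 0.11 in polysomal RNA (limma SE 0.11, adjusted p = 0.56) did not pass. Slc20a1, a phosphate carrier of most cells, and Slc4a1, the anion exchanger of red cells, did not pass either. Slc4a1 had a polysomal difference of 0.69 with an SE of 0.49. The only red cell marker tested, Alas2, was higher in knockout lung in both kinds of RNA.

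Metal carriers were the class detected most completely, with 23 of 30 measured genes tested. In total RNA 4 rose and 1 fell, and in polysomal RNA 1 rose and 2 fell, beside 23.2% and 15.1% of all genes called. Most of the class, 18 of 23 in total RNA and 20 of 23 in polysomal RNA, did not pass.

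Slc30a4, which moves zinc from the cytosol into vesicles, was the second member whose genotype order turned over between the RNA kinds. Total RNA values were 11.07, 11.18 and 11.05 in wild type and 10.50, 10.55 and 10.67 in knockout, and polysomal values were 9.29 and 9.09 against 9.71, 9.59 and 9.45. It fell by 0.53 in total RNA (limma SE 0.10, adjusted p = 0.0059) and rose by 0.39 in polysomal RNA (limma SE 0.11, adjusted p = 0.042). Both sets of arrays were separate, but the polysomal rise was lost in 8 of 11 fits without 1 array (0.30 to 0.49, adjusted p up to 0.22), with quantile normalization and with equal medians. Slc30a6, a zinc carrier of the Golgi, rose by 0.29 in total RNA (limma SE 0.09, adjusted p = 0.047), a call lost in 8 such fits.

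The Slc39 family brings zinc into the cytosol. Slc39a2 read 5.29, 5.08 and 5.14 in wild-type and 4.90, 4.88 and 5.00 in knockout total RNA, and 8.47 and 7.91 against 7.13, 7.33 and 7.23 in polysomal RNA. It fell by 0.96 in polysomal RNA (limma SE 0.15, adjusted p = 0.0042) and did not pass in total RNA, though its arrays did not overlap there. Slc39a11 read 7.28, 7.16 and 7.49 against 8.02, 8.06 and 8.10 in total RNA and rose by 0.75 (limma SE 0.15, adjusted p = 0.0082). Slc39a7, the zinc carrier of the endoplasmic reticulum, rose by 0.47 in total RNA (limma SE 0.15, adjusted p = 0.045), a call lost in 8 of 11 fits without 1 array. Slc39a8, a zinc and manganese carrier, did not pass (polysomal 0.36, limma SE 0.15, adjusted p = 0.13).

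Among heme and iron carriers, Slc48a1, which takes heme out of endosomes and lysosomes, read 9.52, 9.64 and 9.04 in wild-type and 10.00, 10.33 and 10.22 in knockout total RNA. It rose by 0.78 (limma SE 0.15, adjusted p = 0.0069), while its polysomal values lay between 9.33 and 9.53 in both genotypes. Slc11a2, the importer of ferrous iron, read 8.42 and 8.24 on wild-type and 7.52, 7.75 and 7.73 on knockout polysomal arrays and fell by 0.66 (limma SE 0.19, adjusted p = 0.044). That call ended in 7 of 11 fits without 1 array (adjusted p up to 0.20). The macrophage iron carriers Slc11a1 and Slc40a1 (ferroportin) did not pass, with differences of -0.13 and 0.06 in total RNA and 0.02 and 0.22 in polysomal RNA.

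Of 15 tested carriers of monocarboxylates, organic ions, bile acids and fatty acids (48 measured), 3 fell in total RNA and 4 in polysomal RNA. Over all genes tested, 5.97% and 6.77% were lower. The other 12 and 11 carriers did not pass by limma's adjusted p, with 1 higher in each at an unadjusted p below 0.05. The class medians were -0.11 and -0.28, against 0.09 and -0.01 over all genes.

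Slc10a6, a carrier of sulfated steroids, fell furthest in both kinds of RNA. It read 10.22, 10.49 and 9.82 in wild-type and 9.57, 8.63 and 8.83 in knockout total RNA, and 10.66 and 11.16 against 8.53, 8.72 and 9.78 in polysomal RNA. The knockout arrays scattered widely, and all lay below the wild-type arrays of their kind. It fell by 1.90 in polysomal RNA, or 3.72-fold (limma SE 0.40, adjusted p = 0.013), and by 1.17 in total RNA (limma SE 0.35, adjusted p = 0.041). The polysomal call ended without wild-type polysomal array 2 (adjusted p = 0.09), and the total RNA call in 7 of 11 such fits (-1.45 to -0.97).

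Of 7 tested genes of the Slc16 family, 2 fell in total RNA and 2 in polysomal RNA, beside 5.97% and 6.77% of all genes. In each kind of RNA 5 did not pass. Slc16a12, which carries creatine, read 10.98, 11.08 and 10.74 against 9.85, 9.83 and 10.10 in total RNA and fell by 1.01 (limma SE 0.12, adjusted p = 0.0010). In polysomal RNA it read 9.38 and 9.44 against 8.94, 8.94 and 8.68 and fell by 0.55 (limma SE 0.14, adjusted p = 0.025), a call lost without either wild-type polysomal array or without knockout polysomal array 3. Slc16a7, a lactate and pyruvate carrier of high affinity, read 9.99, 10.09 and 9.81 against 8.68, 9.15 and 9.11 in total RNA and fell by 0.98 (limma SE 0.18, adjusted p = 0.0055). Slc16a11 read 7.93 and 7.49 against 6.65, 6.68 and 6.71 in polysomal RNA and fell by 1.03, or 2.05-fold (limma SE 0.15, adjusted p = 0.0027), with no single array deciding it. Slc16a1, the widespread lactate carrier, stayed at 8.19 to 8.29 on all 11 arrays. It is 1 of 17 tested members with a range under 0.5 over all arrays. Whether such flat probe sets follow their message was not tested.

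Slc27a2 couples uptake of very long fatty acids to their activation by coenzyme A. It read 6.65 and 5.62 on wild-type and 5.14, 5.15 and 4.69 on knockout polysomal arrays and fell by 1.14 (limma SE 0.27, adjusted p = 0.021). The wild-type arrays were themselves about as far apart as the genotypes. Without wild-type polysomal array 1 the difference was -0.63 and the call was lost, as it was without knockout polysomal array 3 (adjusted p up to 0.097). The ciliated cell markers were lower on the same knockout polysomal arrays, and their part in these falls was not tested.

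Carriers of nucleosides, vitamins, choline and urea (11 tested of 23 measured) gave 1 rise and 2 falls in total RNA and 4 falls in polysomal RNA. Of all genes tested, 23.2% were called in total RNA and 6.77% were lower in polysomal RNA. The polysomal median of the class was -0.31, against -0.01 over all genes. Slc46a3, a lysosomal carrier of the folate carrier family, read 8.83, 8.71 and 8.34 against 7.89, 7.70 and 7.93 in total RNA and 7.57 and 7.51 against 6.31, 6.37 and 6.67 in polysomal RNA. It fell by 0.79 (limma SE 0.14, adjusted p = 0.0052) and by 1.09 (limma SE 0.16, adjusted p = 0.0032), and both calls stood without any 1 array. The genotypes were far apart in each kind of RNA.

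Of 4 tested genes of the choline family Slc44, 2 fell in polysomal RNA and 2 did not pass, beside 6.77% of all genes lower. Slc44a4, a choline-like protein of epithelia that carries thiamine pyrophosphate, read 10.94 and 10.96 in wild type and 10.09, 10.25 and 9.86 in knockout, and fell by 0.88 (limma SE 0.14, adjusted p = 0.0038). Slc44a1, the choline carrier of most cells, read 7.91 and 7.94 against 7.35, 7.26 and 7.52 and fell by 0.54 (limma SE 0.13, adjusted p = 0.023). The pairs of wild-type arrays were close together in both genes. Slc44a1 lost its call without either wild-type array or without knockout polysomal array 1 or 2 (adjusted p up to 0.10), and neither gene passed in total RNA.

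Slc23a1, a vitamin C carrier, read 6.22 and 6.02 against 5.20, 5.59 and 5.78 in polysomal RNA and fell by 0.60 (limma SE 0.15, adjusted p = 0.029). Slc19a2, a thiamine carrier, read 6.09, 5.99 and 5.61 against 5.46, 5.21 and 5.39 in total RNA and fell by 0.55 (limma SE 0.15, adjusted p = 0.028). Both calls were lost when some single arrays were left out, in 3 and 4 of 11 fits. Slc29a1, a nucleoside carrier that takes up adenosine, passed in total RNA (0.79, limma SE 0.19, adjusted p = 0.015), but its values of 2.05, 2.42 and 2.11 against 3.41, 2.89 and 2.65 lie near the floor. The size of that rise is not well measured, and it did not pass without wild-type total array 1 (adjusted p = 0.058).

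Of 8 tested sugar carriers (28 measured), 1 fell in total RNA and 1 in polysomal RNA, beside 5.97% and 6.77% of all genes. Slc2a1, the glucose carrier of most growing cells, read 9.89 and 10.12 on wild-type and 9.31, 9.61 and 9.31 on knockout polysomal arrays. It fell by 0.60 there (limma SE 0.16, adjusted p = 0.033) and did not pass in total RNA (-0.21, limma SE 0.14, adjusted p = 0.32). The polysomal call was lost without either wild-type array or without knockout polysomal array 1 or 3 (-0.71 to -0.48, adjusted p up to 0.18). Slc2a13, a carrier of myo-inositol, read 7.85, 7.56 and 7.79 against 6.44, 6.18 and 7.20 in total RNA and fell by 1.13 (limma SE 0.30, adjusted p = 0.025). Knockout total array 3 lay nearer to the wild-type arrays than the other two, and the call was lost without knockout total array 1 or 2 or wild-type total array 1 (-1.43 to -0.91).

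In the families of inner membranes, 1 of 9 tested rose in total RNA and 1 fell in polysomal RNA, beside 17.2% and 6.77% of all genes. Slc37a1, of the sugar phosphate carriers of the endoplasmic reticulum, read 8.55 and 7.98 against 7.30, 7.36 and 7.22 in polysomal RNA and fell by 0.97 (limma SE 0.21, adjusted p = 0.014). Its total RNA values, 6.67, 6.56 and 6.12 against 6.79, 6.98 and 6.54, overlapped. Without wild-type polysomal array 1 the polysomal difference was -0.69 and the call was lost (adjusted p = 0.096). Slc35a4, of the nucleotide sugar carriers of the Golgi, read 8.09, 8.38 and 8.34 against 8.81, 8.82 and 8.54 in total RNA and rose by 0.45 (limma SE 0.13, adjusted p = 0.037). This call was lost with quantile normalization and with equal medians. None of the 3 tested sodium, proton and calcium exchangers, such as Slc24a3, passed in either comparison by limma, nor did any at an unadjusted p below 0.05 (0 of 3).

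Among the symbols outside these classes, Slc66a2 rose by 0.44 in total RNA (limma SE 0.13, adjusted p = 0.036) and Slc66a1, a lysosomal exporter of cationic amino acids, fell by 0.61 in polysomal RNA (limma SE 0.17, adjusted p = 0.041). Slc66a1 differed by only -0.40 without wild-type polysomal array 1. Of the proteins that are not carriers, the scaffolds Slc9a3r1 and Slc9a3r2 tie epithelial carriers and channels to the cytoskeleton. Slc9a3r2 rose by 0.44 in total RNA (limma SE 0.13, adjusted p = 0.035), and Slc9a3r1 fell by 0.45 in polysomal RNA (limma SE 0.13, adjusted p = 0.042). Slc7a6os fell by 0.49 in total RNA (limma SE 0.15, adjusted p = 0.038). Each of these 5 calls was lost in 4 to 9 of the 11 fits that left out 1 array, and those of Slc66a2, Slc9a3r1 and Slc9a3r2 also with quantile normalization.

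**Figure D3:**
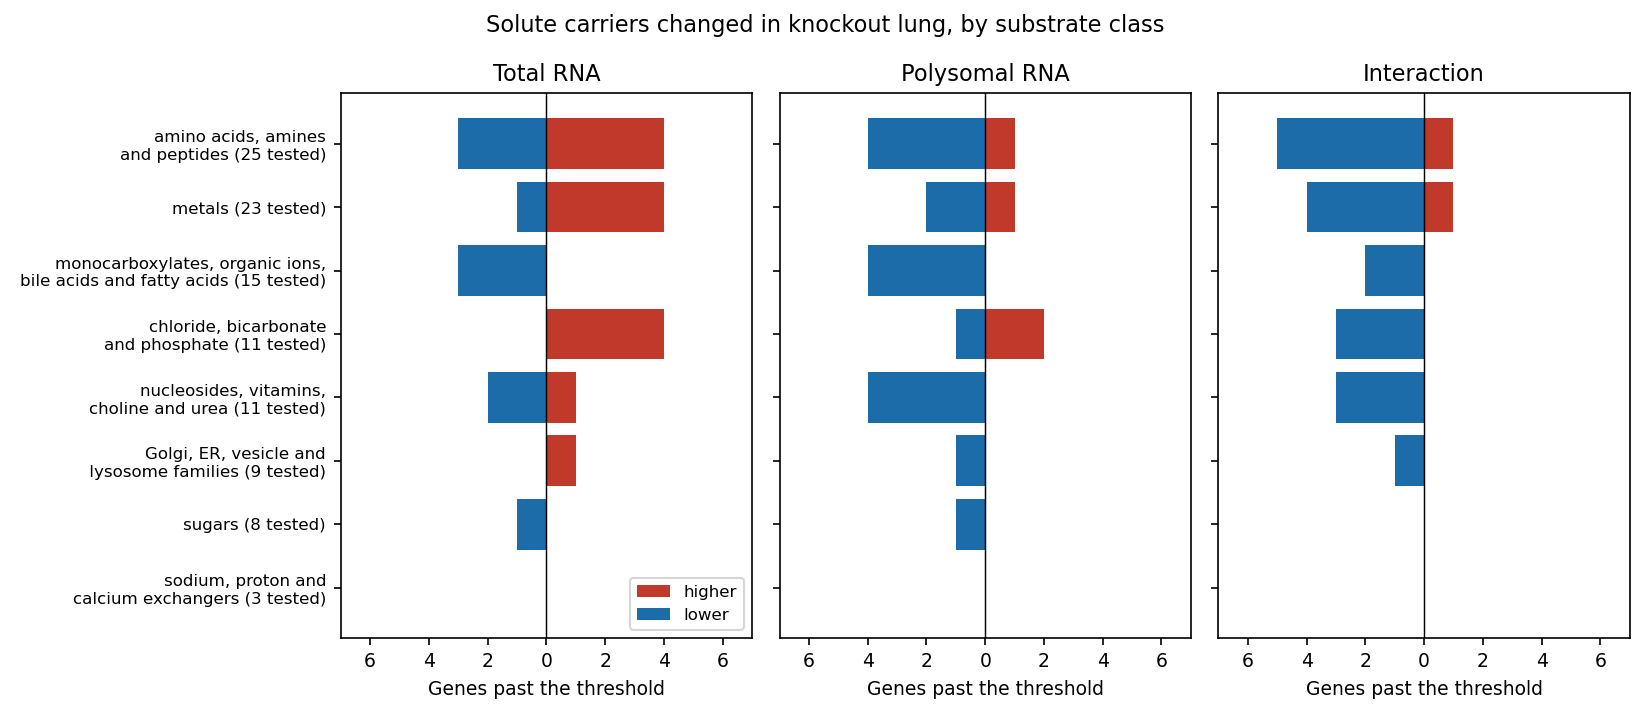
Number of tested solute carriers that passed in each substrate class, higher to the right in red and lower to the left in blue, for total RNA, polysomal RNA and the interaction (the polysomal minus the total RNA difference between genotypes). Chloride, bicarbonate and phosphate carriers have 4 higher and 0 lower in total RNA, and monocarboxylate and organic ion carriers have 0 higher in any panel.

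The next comparison asks how far each message lay on polysomes within a genotype. In wild-type lung 67 of 112 members passed between polysomal and total RNA, 45 higher and 22 lower on polysomes. This was 59.8% of the members, against a background of 72.4% (44.5% higher and 27.9% lower), with a median of 0.19 against 0.22 over all genes. In knockout lung 57 passed, 35 higher and 22 lower, or 50.9% against a background of 65.2% (39.5% higher and 25.7% lower), with a median of 0.06 against 0.13. Scaling moved the wild-type median of all genes from 0.22 to 0.06 after quantile normalization and 0.11 with equal medians, so small differences depend on it. The share that passed was below the background in both genotypes, a gap that was not itself tested.

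Of 25 amino acid carriers, 13 were higher on polysomes in wild-type lung and 2 lower, beside 44.5% and 27.9% of all genes, with a class median of 0.47. In knockout lung 9 were higher and 4 lower, and the median was 0.00. Slc38a5 differed by 3.98 in wild type and 2.34 in knockout, Slc1a5 by 3.29 and 2.12, and Slc3a2 by 2.41 and 1.76. Each of these 3 was thus far higher on polysomes in both genotypes, and by less in knockout lung. Slc6a14 went the other way, at 0.58 in wild type and 2.05 in knockout.

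Zinc carriers lay at both ends of this comparison. Slc39a4, a zinc importer known from the intestine, was higher on polysomes by 3.35 in wild type and 2.69 in knockout, and Slc39a2 by 3.02 and 2.30. Slc30a4 differed by -1.91 in wild type and -0.99 in knockout, and Slc30a9 by -1.92 and -1.59. Of 6 tested Slc30 genes, 2 were higher and 3 lower on polysomes in wild type, and 1 higher and 3 lower in knockout. Among all genes, 44.5% were higher and 27.9% lower in wild type, and 39.5% and 25.7% in knockout. Slc30a6, higher in both, read 9.35 and 9.14 on wild-type polysomal arrays and 8.22, 8.07 and 8.25 on wild-type total arrays. Slc41a2, a magnesium carrier, differed by -2.34 and -2.27. It passed the filter through total RNA arrays only, as did Slc19a2 below, so a lower polysomal value was favoured by the filter.

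Further members at these ends were Slc12a4, higher on polysomes by 3.37 in wild type and 2.10 in knockout, and Slc2a13, with differences of -2.74 and -1.36. Slc16a12 differed by -1.52 and -1.07, Slc19a2 by -1.15 and -1.0, and Slc46a3 by -1.09 and -1.38. Slc29a1 (5.55 and 4.64), Slc7a4 (4.12 and 3.63) and Slc27a3 (3.72 and 3.21) also had large positive differences. Those 3 lay at 1.91 to 3.41 in total RNA, at or near the floor, and all 3 passed the filter through polysomal arrays only. A higher polysomal value was thus favoured by the filter, and the sizes are not well measured.

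**Figure D4:**
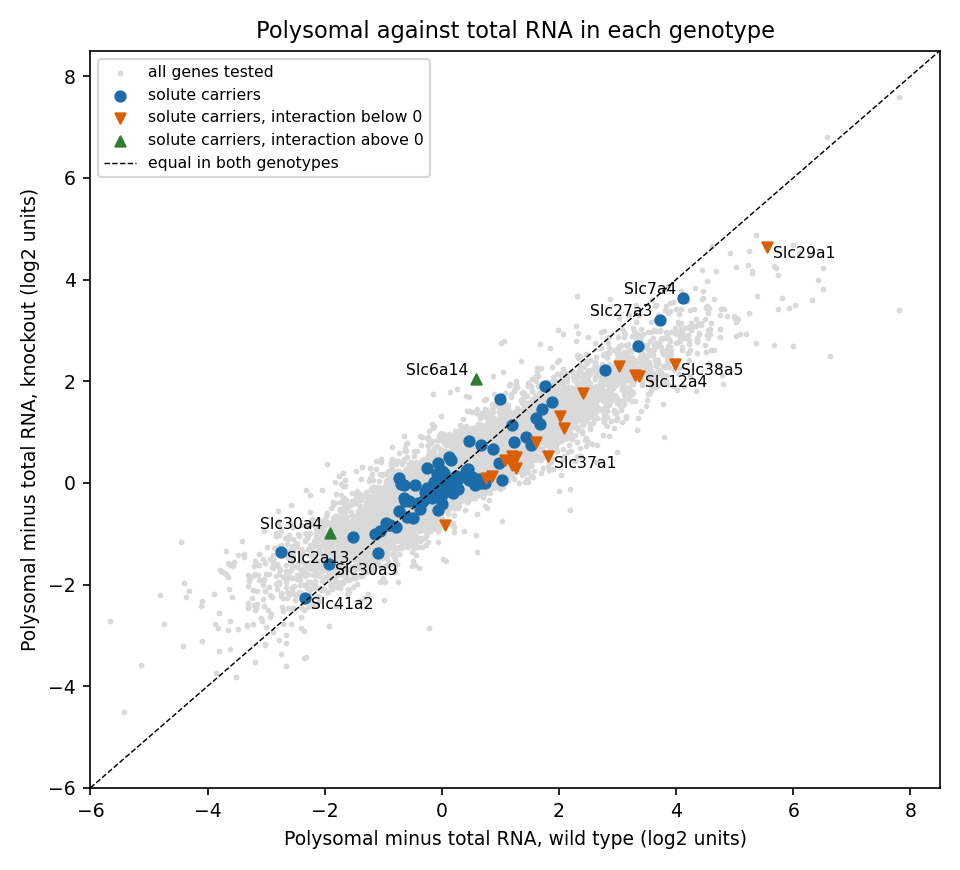
Polysomal minus total RNA difference in wild-type (x axis) and knockout lung (y axis), in log2 units, with all 8085 genes tested in grey and the 112 solute carriers in colour. Points lie along a line less steep than the dashed line of equality, and Slc6a14 stands above it with 0.58 in wild type and 2.05 in knockout.

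Large positive differences between polysomal and total RNA in wild-type lung were mostly smaller in knockout lung, among the members and in the whole table. Across the 112 members the knockout difference rose with the wild-type one with a slope of 0.734 (r = 0.934, across genes, which are not independent replicates), and across all 8085 genes with a slope of 0.684 (r = 0.927). Of 29 members above 1 in wild type, 28 were smaller in knockout (96.6%), as were 92.9% of 2398 such genes in the whole table. Genes were picked here by their wild-type value, from 2 polysomal arrays, so a smaller knockout value was favoured in advance. Spread in the wild-type differences lowers a slope in the same way, and by how much was not tested. Slc29a1, Slc7a4 and Slc27a3, which passed the filter through polysomal arrays only, are among these members. The slopes of the members and of the whole table were close.

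The interaction tests whether the polysomal difference between genotypes departs from the one in total RNA. It passed for 20 members, 2 above and 18 below 0, which is 17.9% against a background of 22.3% of all genes. The shares below 0 were 16.1% of the members and 14.2% of all genes, and those above 0 were 1.79% and 8.06%. With equal array medians the split was 4 above and 14 below. Without wild-type polysomal array 1, or without knockout total array 2, 13 members passed.

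Slc6a14 (1.47, limma SE 0.25, adjusted p = 0.0067) and Slc30a4 (0.92, limma SE 0.15, adjusted p = 0.0054) were the 2 members above 0. Both kept this call without any 1 array. Below 0, the values that also stood without any 1 array were those of Slc12a4 (-1.27, limma SE 0.17, adjusted p = 0.0034), Slc1a5 (-1.17, limma SE 0.16, adjusted p = 0.0036), Slc37a1 (-1.29, limma SE 0.28, adjusted p = 0.013), Slc30a6 (-0.62, limma SE 0.14, adjusted p = 0.014) and Slc3a2 (-0.64, limma SE 0.14, adjusted p = 0.015). Slc38a5 had the most negative value, -1.64 (limma SE 0.46, adjusted p = 0.034), and 7 of 11 fits without 1 array lost it. These values use the same arrays as the differences above and are no separate evidence for them.

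Those below 0 came from different sides. For Slc12a4, Slc38a5, Slc4a2, Slc48a1, Slc39a11, Slc29a1, Slc15a3, Slc15a4 and Slc30a6 the total RNA difference passed upward and the polysomal one did not pass. For Slc3a2, Slc37a1, Slc39a2, Slc16a11, Slc44a4, Slc44a1 and Slc12a7 the polysomal difference passed downward and the total RNA one did not. Only Slc1a5 passed in both, in opposite directions. Slc27a4, a fatty acid carrier, passed in the interaction alone (-0.77, limma SE 0.22, adjusted p = 0.038), and this was lost in 8 of 11 fits without 1 array.

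Proteins that work with carriers were examined in the same fit. Chaperones and subunits had 10 genes tested. Bsg (basigin), which brings the lactate carriers Slc16a1 and Slc16a3 to the surface, rose by 1.22 in total RNA (limma SE 0.17, adjusted p = 0.0019) and had an interaction of -1.54 (limma SE 0.26, adjusted p = 0.0060). Slc16a1 itself passed in neither kind of RNA, and Slc16a3 was not tested. Slc16a1 read 8.29, 8.28 and 8.28 in wild-type and 8.24, 8.24 and 8.27 in knockout total RNA, without overlap. Its range over all arrays was only 0.1, and whether so flat a probe set follows its message was not tested. Car4, a carbonic anhydrase that supplies bicarbonate carriers, rose by 0.76 in total RNA (limma SE 0.14, adjusted p = 0.0059). Fxyd5, a small membrane protein of the FXYD family, rose by 0.52 (limma SE 0.14, adjusted p = 0.023). Car2 rose by 0.41 (limma SE 0.11, adjusted p = 0.027).

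Among 5 tested regulators, the kinase Wnk4, which controls Slc12 cotransporters, rose by 0.44 in total RNA (limma SE 0.12, adjusted p = 0.032), and none passed in polysomal RNA (1 at an unadjusted p below 0.05). Of 5 tested genes of the amino acid response, Atf4, the factor that turns on many amino acid carriers, rose by 0.51 in total RNA (limma SE 0.16, adjusted p = 0.042), and none passed in polysomal RNA (2 lower at an unadjusted p below 0.05). The interaction was -0.74 for Atf4 (limma SE 0.23, adjusted p = 0.049) and -0.69 for Asns (limma SE 0.18, adjusted p = 0.026), the asparagine synthetase. Of 5 tested organic anion carriers of the Slco family, only Slco2b1 passed, falling by 0.76 in polysomal RNA (limma SE 0.10, adjusted p = 0.0023). Whether the calls of these partners, regulators and related genes stand without any 1 array was not examined.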

How the data were processed

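Total and polysomal lung RNA was measured on 11 one-colour Affymetrix arrays. The authors deposited 1 log2 value per probe set and array, made with GCRMA per the submitters' processing notes (no version named in the labels). That they are log2 was judged from their range. GCRMA scales all arrays to one another, so a shift shared by most messages is not visible. Probe sets carry RefSeq accessions: of 26180, 15228 matched 1 gene of the RefSeq table of GRCm38.p6 and 10952 matched none. A probe set was tested with a log2 value of at least 5 on at least 2 arrays (13802), and a gene was its tested probe set with the highest mean. Of the 26180 probe sets, 10682 had the same values as another on every array. Such copies were kept in the fit and in the adjustment, and how many of them were tested was not counted. A group-means model over all 11 arrays was fitted with limma 3.58.1 in R 4.3.3 (7 residual degrees of freedom, prior 2.67), with two-sided tests and Benjamini-Hochberg adjustment over all probe sets tested. The fit was tested on simulated data. For arrays, their number limits the precision.

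Families were grouped by substrate from general knowledge, and 3 genes were not placed. Named genes were, per genotype contrast and the interaction, up to 8 members per direction with the largest difference among those that passed (compared arrays not overlapping, except for the interaction). For polysomal minus total RNA there were 6 per direction. Up to 3 members per class with the smallest p, partners that passed and a list of lung carriers were added, and the other members that passed were named too. Members and lists were chosen with earlier results of these data known. The set letter in the labels did not pair arrays: 15 pairs with the same letter had correlations of deviations of -0.175 to 0.322 (4 over 0.1), and 30 pairs with different letters -0.211 to 0.3. Alternatives were other filters, quantile normalization, equal medians, the set letter as a block, the compared groups alone, the mean of a gene's probe sets and leaving out each array. Tables and figures were made with pandas 2.3.3 and matplotlib 3.10.9 in Python 3.11.15. Results for a few genes are not reported here.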

Additional observations from a re-analysis of the deposited data

Results flagged for a closer look

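For 20 solute carriers the genotype difference in polysomal RNA departed from that in total RNA by limma's test of the interaction, each with an adjusted p below 0.05. Only Slc6a14 (1.47) and Slc30a4 (0.92) had a more positive difference in polysomal than in total RNA. The amino acid and peptide carriers below 0 were Slc38a5 (-1.64), Slc1a5 (-1.17), Slc15a4 (-1.0), Slc15a3 (-0.85) and the heavy chain Slc3a2 (-0.64). Among chloride and bicarbonate carriers these were Slc12a4 (-1.27), Slc4a2 (-0.80) and Slc12a7 (-0.67). Zinc and heme carriers gave Slc39a11 (-0.98), Slc48a1 (-0.87), Slc39a2 (-0.72) and Slc30a6 (-0.62). Fatty acid and monocarboxylate carriers gave Slc27a4 (-0.77) and Slc16a11 (-0.67). The nucleoside carrier Slc29a1 (-0.91), near the floor in total RNA, and the choline family genes Slc44a1 (-0.70) and Slc44a4 (-0.70) followed. Slc37a1 of the endoplasmic reticulum had -1.29. Values are in log2 units.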

How the results depend on the processing

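The alternative runs were followed for 98 named differences of members, and none of these that passed changed sign. Partners, cell type markers, the 2 deleted genes and the mitochondrial carriers were not among them. Differences that did not pass were not followed in this way, and some small ones can change sign without 1 array. The count of members that passed in total RNA went from 27 to 81 with no filter on low values (18 higher, 63 lower), because untested members at the floor then entered, and to 17 with the compared groups fitted alone. The latter gave 10 in place of 23 in polysomal RNA. The count for wild-type polysomal minus total RNA went from 67 to 170 with no filter (52 higher, 118 lower). Leaving out 1 array gave 15 to 35 in total RNA, 8 to 27 in polysomal RNA, 13 to 29 for the interaction, 55 to 69 for polysomal minus total RNA in wild type and 51 to 58 in knockout. Where 1 wild-type polysomal array was left, it was assumed to vary like the other groups. With the set letter as a replicate block the 5 counts were 18, 16, 14, 56 and 56, and the letters share only a name. For these 98 values, 938 of 1078 fits without 1 array kept the call, 139 lost it and 1 gained it. Other settings that ended calls were the compared groups alone (18 of these values), the set letter block (15), no filter (10), quantile normalization (6) and equal medians (5). The mean over a gene's probe sets and a filter at 6 ended none of the calls they could be run on. The number of arrays, with 2 for wild-type polysomal RNA, limits the precision.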

Other observations

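The mitochondrial carriers of the Slc25 family, left out of the set above, shuttle metabolites across the inner mitochondrial membrane. Of 40 genes measured, 30 were tested. In total RNA 2 rose and 1 fell in knockout lung, and in polysomal RNA 3 rose and 3 fell, beside 23.2% and 15.1% of all genes tested. Slc25a1, the citrate carrier that supplies lipid synthesis, rose by 1.08 in total RNA (limma SE 0.11, adjusted p = 0.00046), with means of 8.11 in wild type and 9.19 in knockout and no overlap of arrays. Slc25a11, the carrier of oxoglutarate and malate, rose by 0.63 (limma SE 0.13, adjusted p = 0.0077). Neither passed in polysomal RNA, and their interactions were -1.11 (limma SE 0.16, adjusted p = 0.0040) and -0.83 (limma SE 0.19, adjusted p = 0.016).

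Slc25a46, an outer membrane protein of the family that is involved in mitochondrial shape, had opposite differences in the 2 kinds of RNA. It fell by 0.44 in total RNA (limma SE 0.10, adjusted p = 0.014) and rose by 0.74 in polysomal RNA (limma SE 0.12, adjusted p = 0.0038), with an interaction of 1.19 (limma SE 0.15, adjusted p = 0.0030). Slc25a16 rose by 0.85 in polysomal RNA (limma SE 0.18, adjusted p = 0.013) and Slc25a35 by 0.75 (limma SE 0.19, adjusted p = 0.031). Slc25a29, a carrier of basic amino acids, fell by 0.98 (limma SE 0.22, adjusted p = 0.018), and Slc25a33, which carries pyrimidine nucleotides, fell by 0.77 (limma SE 0.16, adjusted p = 0.012). These genes were named because they passed, after their values were seen. Whether the calls of the mitochondrial carriers stand without any 1 array was not examined.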
